A study of Mus musculus with 5 samples.

Results

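The 26S proteasome is the protease that degrades proteins tagged with ubiquitin. Its 20S core is a stack of rings, in which the outer rings of α subunits gate the chamber and the inner rings of β subunits carry the cutting sites. The 19S cap holds the ATPases that unfold a substrate and the non-ATPase subunits that bind ubiquitin and remove it. Genes of the constitutive subunits are transcribed in every cell type and are known to be raised together when proteasome activity falls short. The members described here are the protein-coding genes whose mouse symbol starts with Psma, Psmb, Psmc or Psmd and a digit, without *Psmb8* and *Psmb9*. The rule used names only and found 38 of the 21835 genes in the table, of which 36 were expressed highly enough to be tested (at least 0.5 CPM, a count scaled to the depth of the library, in at least 2 of the 5 samples). They comprised 8 α-ring genes, 7 β-ring genes, *Psmb10* and *Psmb11* of alternative β subunits, 6 ATPases, 11 non-ATPases, the 3 chaperones of 19S assembly *Psmd5*, *Psmd9* and *Psmd10*, and *Psmc3ip*. The last one matches the name pattern but encodes a meiotic recombination protein and is no proteasome subunit, so it is given apart.

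Bulk mRNA was sequenced from murine lung cancer-associated fibroblasts (CAFs), with 2 samples of the CAF-vec group, labelled as wild-type control, and 3 of the CAF-200 group, which overexpressed the miRNAs of a miR-200 cluster (miR-200b, miR-200a, miR-429). The labels describe a pLVX-Neo lentivirus produced in 293T cells, G418 selection and culture in alpha-MEM with serum, whereas the study's methods name a vector with hygromycin resistance and the introduction into lung fibroblasts, and both groups share the lentiviral treatment and selection as far as the labels tell. The labels name the cells as a CAF cell line and do not say whether samples of a group were separate cultures, so the *p* values measure the spread between these samples, which may be technical. The methods speak of triplicates, while the labels hold 2 CAF-vec samples.

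Of 10 fibroblast markers, 9 were at 1 CPM or more in every sample, and *Fap*, a protease commonly used to define CAFs, stayed under 0.5 CPM. Summed over these markers, CAF-vec 1 was at 14148 CPM, CAF-vec 2 at 7457 CPM and CAF-200 at 6609 to 7302 CPM. The sum is mostly *Col1a1*, *Col1a2* and *Vim*, and single markers went the other way, such as *Dcn* with 7.67 and 8.18 CPM in CAF-vec and 51.0, 61.5 and 56.7 CPM in CAF-200, and *Thy1* with 85.3 and 111 CPM in CAF-vec and 266, 261 and 277 CPM in CAF-200. What these marker levels did to the values of the proteasome genes was not tested. All 6 epithelial and all 4 endothelial markers and 4 of 5 leukocyte markers were under 0.5 CPM, with *Krt18*, *Sftpc*, *Adgre1*, *Cd3e* and *Tie1* at 0, and the highest value in these lists was 5.01 CPM for *Cd68*. Each column of the table sums to about the same total and holds no counts, so the depth of each sample is unknown and no interval for counting error can be given. The CAF-vec samples stood apart from each other. Over all genes tested, log2 differences had an SD of 0.490 within CAF-vec and of 0.192 to 0.204 within CAF-200. The 3 CAF-200 columns also listed exactly the same 6127 genes at 0 and held 788 to 1100 values above 0 but under 0.001 CPM, whereas the CAF-vec columns held 0 such values and 1205 genes were at 0 in 1 CAF-vec sample only. What this difference in the low values did to the spread within CAF-200 was not tested.

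The comparison of CAF-200 with CAF-vec asks how miR-200 changes the fibroblasts. The level of all members together did not set the groups apart. Their summed level was 6003 and 5239 CPM in CAF-vec and 5988, 5804 and 5865 CPM in CAF-200, so all CAF-200 sums lay between those of the controls. Within the complex the values diverged. The α-ring sum was 1123 and 1037 CPM in CAF-vec and 1316, 1281 and 1280.0 CPM in CAF-200, above both CAF-vec samples in each CAF-200 sample. By contrast, the β-ring sum was 1542 and 1443 CPM in CAF-vec and 1522, 1485 and 1501 CPM in CAF-200, within the range of the controls. The ATPases summed to 976 and 807 CPM in CAF-vec and 949.6, 936 and 919 CPM in CAF-200, and the 19S non-ATPases to 2102 and 1777 CPM in CAF-vec and 1997, 1896 and 1968 CPM in CAF-200, again between the controls. In bulk RNA, a lower level from fewer cells of a type and from less RNA per cell cannot be told apart.

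Tested gene by gene on log2(CPM + 0.5) with limma and Benjamini-Hochberg adjustment over the 12175 genes, 5 of the 36 tested members rose in CAF-200 at an adjusted *p* under 0.05 (13.9%), against 11.9% of all genes tested. They were *Psma1*, *Psma2*, *Psma4*, *Psmd12* and *Psmc3ip*. None fell (limma, the only tool run), against 18.6% of all genes, and at an unadjusted *p* under 0.05 the counts were 6 higher and 1 lower, against 17.3 and 27.6% of all genes. At the thresholds of the study (a log2 fold-change beyond 1 and an adjusted *p* under 0.01) the count of members was 0, against 4.72% of all genes. The share of members that rose is therefore near that of all genes, while the count that fell is below it. Of the 36 members, 23 had a positive log2 fold-change (63.9%), against 41.7% of all genes, and their median was 0.10, against -0.094 over all genes tested. The share of higher calls depends on scaling, since over all genes 1446 were higher and 2265 lower as deposited but 1872 higher and 1756 lower after centring each sample on its median, when 7 members were higher and 0 lower. In 16 members (44.4%) every CAF-200 value lay above both CAF-vec values, against 24.3% of all genes. In 4 (*Psmb1*, *Psmb5*, *Psmd6* and *Psmd8*, 11.1%) every CAF-200 value lay below both, against 37.3% of all genes.

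These calls rest on few samples, and the fit takes a common spread per gene for both groups, although it was wider within CAF-vec. The adjusted *p* values may therefore be too small. Without CAF-vec 1, 16 members were higher and 1 was lower, against 20.4 and 26.8% of all genes tested in that setting. Without CAF-vec 2, 7 were higher and 10 lower, against 25.3 and 39.6% of all genes, so the counts of calls moved across the whole table as well. Without CAF-200 1 the call of *Psmc3ip* alone passed, against 4.42% of all genes higher, and without CAF-200 2 or CAF-200 3 the count of members was 0, against 4.15 and 3.59%. It was also 0 with weights estimated for each sample (chosen after seeing the data), against 5.08% of all genes higher.

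**Figure D1:**
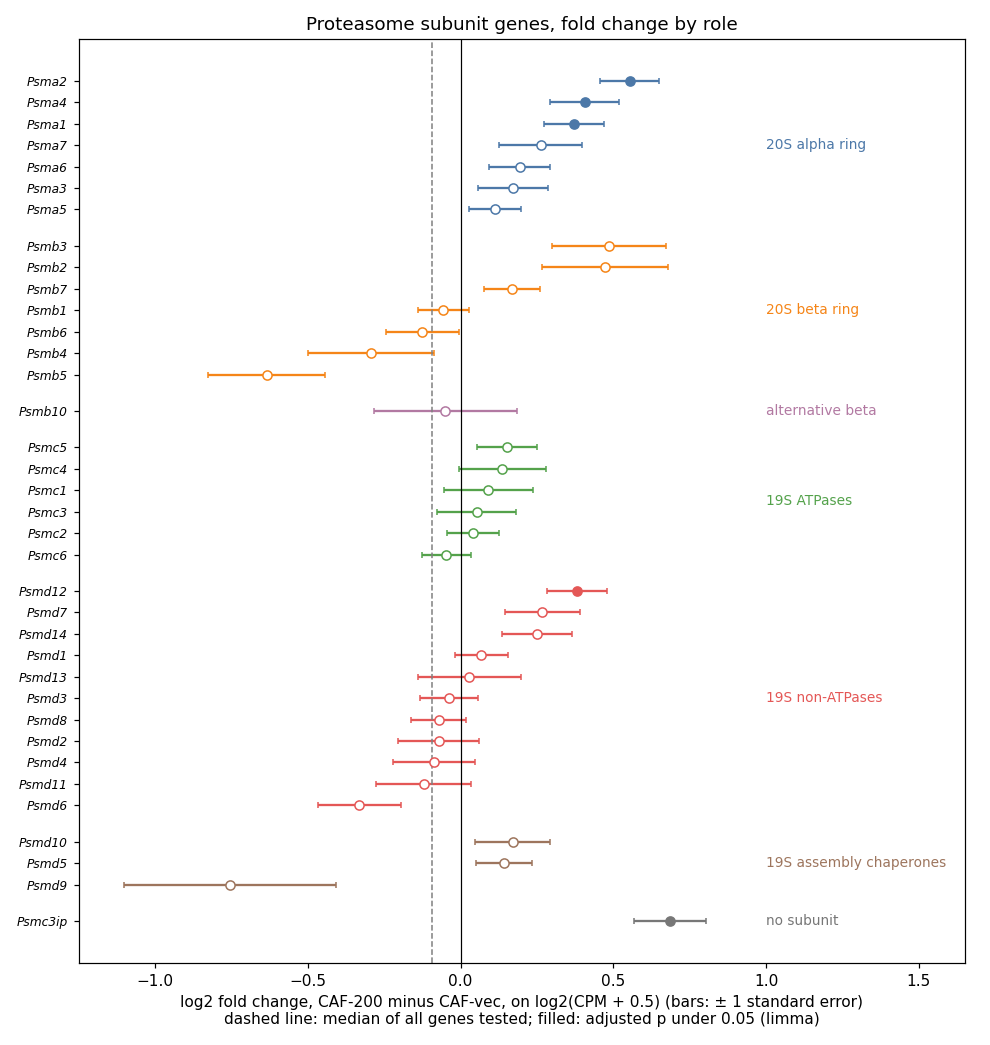
Log2 fold-change of the 36 tested members (horizontal axis, CAF-200 minus CAF-vec on log2(CPM + 0.5), bars ± 1 standard error), grouped and coloured by role. Filled points pass an adjusted p of 0.05 (limma), the dashed line is the median of all genes tested (-0.094), and the 7 tested α-ring genes all lie to the right of 0, whereas the β ring spans -0.64 to 0.49.

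The α ring was the one role in which each tested member had a positive log2 fold-change, 7 of 7, from 0.11 to 0.55 with a median of 0.26. All 7 were also higher than each control alone, but the median difference was 0.088 against CAF-vec 1 and 0.30 against CAF-vec 2. In 6 of the 7 every CAF-200 value was above both controls, and 3 were called higher, where the shares of all genes were 41.7% with a positive value, 24.3% above both controls and 11.9% called. The α ring was picked out here after its values were seen, and its difference from the other roles was not tested. *Psma2* (ENSMUSG00000015671, chr13:14613240-14674236 of GRCm38) was 65.9 and 74.6 CPM in CAF-vec and 107, 97.9 and 105 CPM in CAF-200. The lowest CAF-200 sample was thus well above the higher control. Its means were 70.3 ± 6.19 CPM (SD, n = 2) and 103 ± 4.66 CPM (SD, n = 3), which differed by 0.55 in log2 (SE, standard error of the log2 value, 0.0972, adjusted *p* = 0.0123, limma). *Psma4* (ENSMUSG00000032301, chr9:54950790-54958030) was 127 and 155 CPM in CAF-vec and 182, 189 and 185 CPM in CAF-200, and CAF-vec 1 was the low sample. Its log2 fold-change was 0.41 (SE 0.112, adjusted *p* = 0.0424, limma), and this call was lost with no filter on low values (adjusted *p* = 0.0529). *Psma1* (ENSMUSG00000030751, chr7:114264606-114276118) was 101 and 111 CPM in CAF-vec and 148, 131 and 133 CPM in CAF-200. The groups of *Psma1* were separate, and its log2 fold-change was 0.37 (SE 0.0990, adjusted *p* = 0.0384, limma). *Psma3*, *Psma5*, *Psma6* and *Psma7* had log2 fold-changes of 0.11 to 0.26 and adjusted *p* values of 0.185 to 0.339, and of these *Psma3* was the only one with overlapping groups. *Psma8*, the α subunit of the testis proteasome, was listed at 0 in every sample.

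In the β ring none of the 7 genes passed the adjusted *p* in either direction (limma), beside 11.9% of all genes called higher and 18.6% lower. At an unadjusted *p* under 0.05 *Psmb3* was higher and *Psmb5* lower, beside 17.3 and 27.6% of all genes. The log2 fold-change was positive in 3 of the 7 (42.9%), near the 41.7% of all genes, with a median of -0.06. *Psmb5* (ENSMUSG00000022193, chr14:54614119-54618022) encodes the subunit with the chymotrypsin-like site, the target of bortezomib. It was 228 and 148 CPM in CAF-vec and 128, 113 and 114 CPM in CAF-200. Every CAF-200 value was below both controls, and CAF-vec 1 was far above CAF-vec 2. The means were 188 ± 56.6 CPM (SD, n = 2) and 118 ± 8.25 CPM (SD, n = 3), and the log2 fold-change was -0.64 (SE 0.193, adjusted *p* = 0.0548, limma). *Psmb6*, with the caspase-like site, was 294 and 237 CPM in CAF-vec and 251, 240.5 and 234 CPM in CAF-200, so that the groups overlapped (-0.12 in log2, SE 0.121, adjusted *p* = 0.454, limma). *Psmb7*, with the trypsin-like site, was 178 and 169 CPM in CAF-vec and 196, 185 and 205 CPM in CAF-200. These groups did not overlap, but the log2 fold-change of 0.17 did not pass the test (SE 0.0914, adjusted *p* = 0.201, limma). Of the genes of the 3 cutting sites, *Psmb5* thus had the lowest value of the ring, and *Psmb6* and *Psmb7* had smaller values of opposite sign. The annotation holds processed pseudogenes of *Psmb5*, *Psmb6* and *Psmb7*, so reads of these genes may have been split.

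Among the structural β genes, *Psmb3* and *Psmb2* had the largest rises in value. *Psmb3* was 215 and 326 CPM in CAF-vec and 353, 379.6 and 380.3 CPM in CAF-200 (log2 fold-change 0.49, SE 0.185, adjusted *p* = 0.0972, limma). *Psmb2* was 100.0 and 164 CPM in CAF-vec and 178, 178 and 177 CPM in CAF-200 (0.47, SE 0.207, adjusted *p* = 0.133, limma). In both genes CAF-vec 1 was low and CAF-vec 2 close to CAF-200. *Psmb4* was 351 and 218 CPM in CAF-vec and 240.5, 216 and 222 CPM in CAF-200, with CAF-vec 1 as the only high sample (log2 fold-change -0.29, SE 0.206, adjusted *p* = 0.313, limma). *Psmb1* had a log2 fold-change of -0.06. Without CAF-vec 2, the log2 fold-changes of *Psmb2* and *Psmb3* were 0.83 and 0.79. Those of *Psmb4*, *Psmb5* and *Psmb6* were -0.63, -0.95 and -0.28. Without CAF-vec 1, the values of these genes in the same order were 0.12, 0.19, 0.049, -0.32 and 0.030, so that among them only *Psmb5* stayed negative.

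*Psmb10* encodes the β subunit that replaces that of *Psmb7* in the immunoproteasome, the form induced by interferon. It was 38.6 and 23.4 CPM in CAF-vec and 31.4, 31.6 and 24.6 CPM in CAF-200, which gave a log2 value of -0.05 (SE 0.234, adjusted *p* = 0.879, limma). The groups overlapped, and the sign changed with scaling, to 0.06 after quantile normalization and 0.05 after centring on the sample median. Divided by transcript length, *Psmb10* made up 16.1 and 10.9% of the summed *Psmb7* and *Psmb10* level in CAF-vec and 12.4, 13.1 and 9.63% in CAF-200. *Psmb11*, the β subunit of the thymus, was at most 0.0196 CPM and was not tested.

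**Figure D2:**
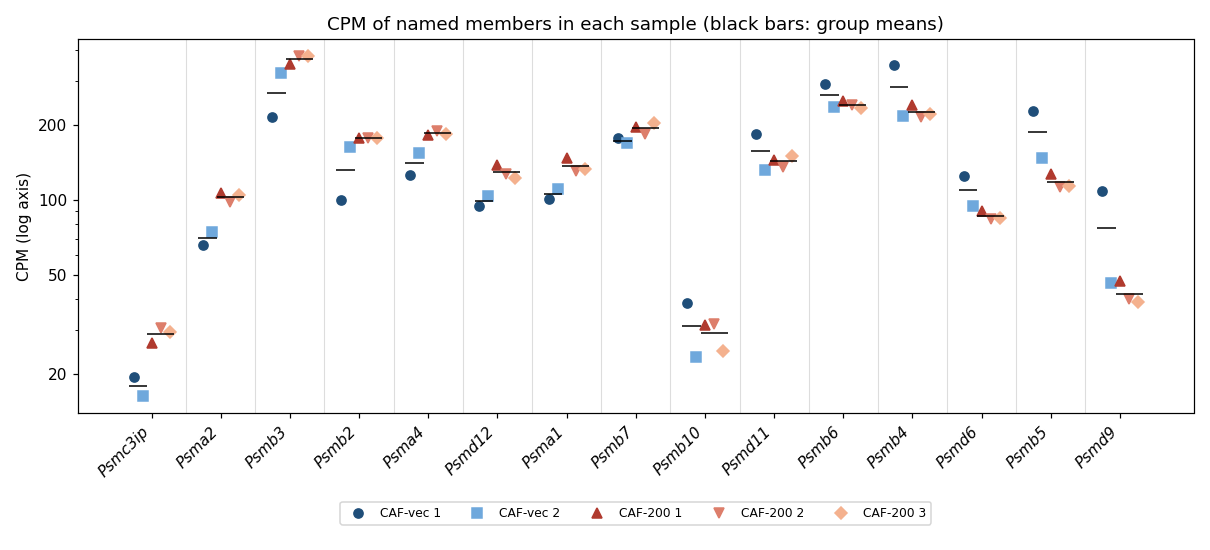
CPM (log axis) of the 6 members with the largest rise and the 6 with the largest fall in log2 value, with Psma1, Psmb7 and Psmb10, in each of the 5 samples. Black bars are group means; the 3 CAF-200 points lie close together, while the CAF-vec points are far apart in genes such as Psmd9 (109 and 46.3 CPM) and Psmb2 (100.0 and 164 CPM).

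In the 19S cap, 1 of the 6 ATPases and 11 non-ATPases was called higher, beside 11.9% of all genes. *Psmd12* (ENSMUSG00000020720, chr11:107479484-107504362), a scaffold subunit of the lid, was 94.7 and 104 CPM in CAF-vec and 138, 127 and 122 CPM in CAF-200. The CAF-200 samples were all above both controls, and the log2 fold-change was 0.38 (SE 0.0984, adjusted *p* = 0.0355, limma). The 6 ATPases, which form the motor of the cap, had log2 fold-changes of -0.05 to 0.15 with adjusted *p* values of 0.279 to 0.776, and 1 of them lay above both controls in every CAF-200 sample and 0 below both, beside 24.3 and 37.3% of all genes. Of the 11 non-ATPases 5 had positive values (45.5%, beside 41.7% of all genes), with a median of -0.04. *Psmd7* and *Psmd14*, the partners in the deubiquitinating module of the lid, had log2 fold-changes of 0.27 and 0.25 with groups that did not overlap (adjusted *p* = 0.143 and 0.145, limma). *Psmd6*, another lid subunit, was 125 and 94.8 CPM in CAF-vec and 90.5, 84.3 and 85.0 CPM in CAF-200. It was below both controls in each CAF-200 sample (log2 fold-change -0.33, SE 0.136, adjusted *p* = 0.115, limma). *Psmd11* was 184 and 132 CPM in CAF-vec and 145, 136 and 150.0 CPM in CAF-200, which overlapped (-0.12, SE 0.156, adjusted *p* = 0.574, limma). The ubiquitin receptor gene *Psmd4* and the large scaffold genes *Psmd1* and *Psmd2* had log2 fold-changes of -0.09, 0.07 and -0.07.

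The lowest log2 fold-change among the members was that of *Psmd9* (ENSMUSG00000029440, chromosome 5), a chaperone that escorts ATPases into the base of the cap. It was 109 and 46.3 CPM in CAF-vec and 47.3, 39.9 and 38.9 CPM in CAF-200. The controls thus differed by 1.22 on the log2 scale, and CAF-vec 2 lay below CAF-200 1. The log2 fold-change was -0.75 with a SE of 0.347 (adjusted *p* = 0.147, limma). Without CAF-vec 2 it was -1.36 and past both thresholds of the study, and without CAF-vec 1 it was -0.14 and not called. *Psmd5* and *Psmd10*, the other chaperones, had values of 0.14 and 0.17. Exons of *Psmd9* overlap a gene on the opposite strand, as do those of *Psma4* and *Psmc3ip*, and a miRNA gene overlaps *Psmb5* on the same strand. Apart from the complex, *Psmc3ip* was 19.4 and 16.2 CPM in CAF-vec and 26.7, 30.6 and 29.4 CPM in CAF-200, and had the highest log2 fold-change of all members at 0.68 (SE 0.118, adjusted *p* = 0.0116, limma). Without this gene, 4 of 35 tested members were called higher (11.4%).

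The CAF-vec samples differed widely in the proteasome genes. CAF-vec 1 was above CAF-vec 2 in 26 of the 36 members (72.2%), against 55.4% of all genes, with a median log2 difference of 0.25 in the members and 0.054 over all genes. Among the members that log2 difference had an SD of 0.365, and between CAF-200 samples the SD was 0.0859 to 0.106. The values therefore depended on the control. Compared with CAF-vec 1 alone, 18 of 36 were higher in CAF-200 and the median difference was 0.02 on the log2 scale, whereas compared with CAF-vec 2 alone 30 were higher and the median was 0.20. With the lone control taken to vary like the CAF-200 samples, 7 members were called higher and 10 lower than CAF-vec 1, and 16 higher and 1 lower than CAF-vec 2. Of all genes tested, 25.3% were called higher and 39.6% lower than CAF-vec 1, and 20.4% higher and 26.8% lower than CAF-vec 2. The genes called the same way against each control were *Psma1*, *Psma2*, *Psma4*, *Psmd12* and *Psmc3ip* as higher and *Psmb5* as lower, where 13.7% of all genes were called higher and 20.4% lower against each control. Both comparisons use the same CAF-200 samples, so they are not independent. *Psmd13*, a lid subunit at 156 and 107 CPM in CAF-vec and 137, 127 and 131 CPM in CAF-200, was called lower against CAF-vec 1 and higher against CAF-vec 2.

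**Figure D3:**
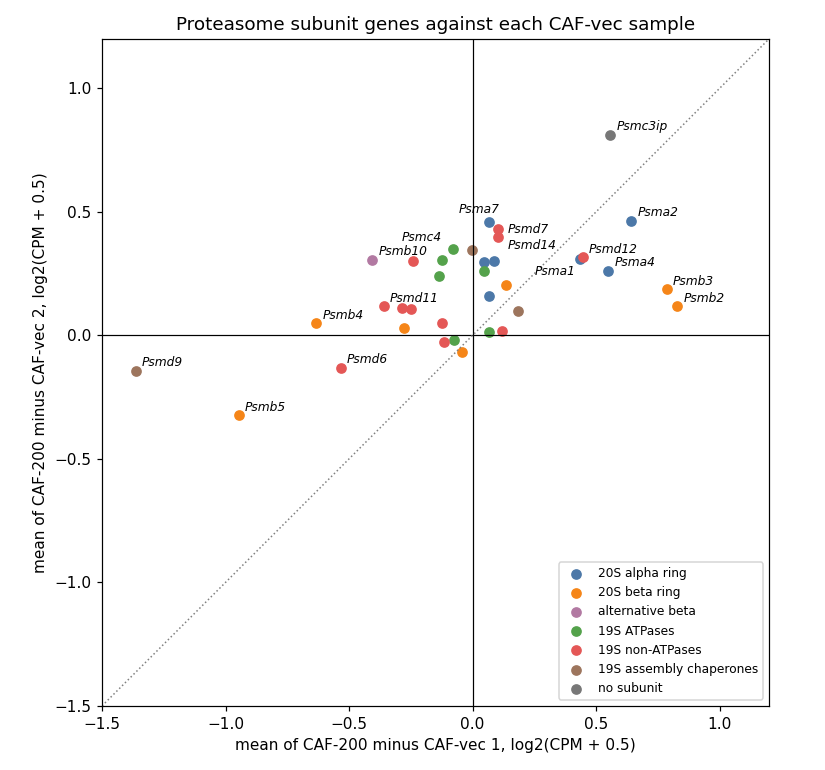
Mean log2(CPM + 0.5) of the 3 CAF-200 samples minus CAF-vec 1 (horizontal axis) and minus CAF-vec 2 (vertical axis) for the 36 tested members, coloured by role. Points on the dotted line would have equal controls; 18 members lie right of 0 against CAF-vec 1 and 30 lie above 0 against CAF-vec 2, and both axes use the same CAF-200 samples.

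Levels can be compared between genes only per length, here as CPM per kb of the principal transcript averaged over the 5 samples. Over that mean the tested members spanned a range of 29.1 times, from 14.9 CPM per kb for *Psmd5* to 432 CPM per kb for *Psmb3*. By group mean *Psmb3* was the highest in both groups, whereas the lowest in CAF-vec was *Psmc3ip* at 13.8 CPM per kb. In CAF-vec 1 alone *Psmb3* was at 281 CPM per kb, below *Psmb6* at 368 and *Psmb4* at 296. By role, the median was 186 CPM per kb in the β ring, 113 in the α ring, 107 in the ATPases, 73.1 in the non-ATPases and 21.6 in the 3 chaperones of 19S assembly. These chaperones, which leave the finished particle, were at 14.9 to 22.6 CPM per kb, below each ATPase and non-ATPase gene, the lowest of which was *Psmc6* at 46.4 CPM per kb. The longest annotated 3′-UTRs of *Psmd5* and *Psmd9* are 2842 and 1811 bases, so their values depend on the transcript used. The chaperones of core assembly varied, from 13.9 to 22.1 CPM per kb for *Psmg1* to 199 to 257 CPM per kb for the maturation factor *Pomp*. *Psmb5* went from 254 and 164 CPM per kb in CAF-vec to 142, 125 and 127 CPM per kb in CAF-200, and by group mean from place 4 to place 11 in the order. *Psma2* had the lowest level of the α ring at 30.9 CPM per kb, on a principal transcript of 2911 bases that includes a long 3′-UTR, and transcripts with other ends would change this value.

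**Figure D4:**
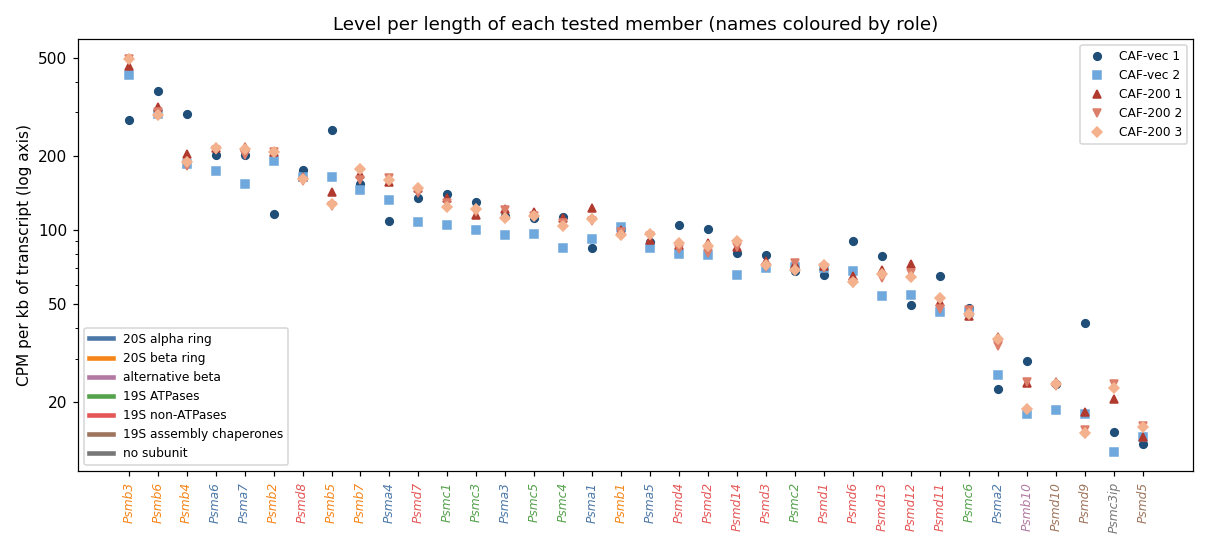
CPM per kb of the principal transcript (log axis) of each tested member in the 5 samples, ordered by mean level, with names coloured by role. Means over the 5 samples run from 432 CPM per kb for Psmb3 to 14.9 CPM per kb for Psmd5, and the symbols of the CAF-vec samples are spread more widely than those of the CAF-200 samples in most genes.

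Of 36 other genes of the ubiquitin-proteasome pathway, all tested, 6 rose and 3 fell at an adjusted *p* under 0.05, beside 11.9 and 18.6% of all genes. Without CAF-200 1 the counts were 0, against 4.42% of all genes higher and 5.98% lower, and without CAF-200 2 they were also 0, against 4.15 and 4.79%. Without CAF-200 3 the immunoproteasome gene *Psmb8* alone was called, as higher, against 435 genes higher and 485 lower of 12119, and it had entered the test only through the CAF-200 samples. Without CAF-vec 1, 11 were higher and 4 lower, against 20.4 and 26.8% of all genes, and without CAF-vec 2, 15 were higher and 12 lower, against 25.3 and 39.6%. The activators of the 20S core moved in opposite directions. *Psme1* and *Psme2* encode PA28α and PA28β, which form the interferon-induced activator. *Psme1* was 72.7 and 50.3 CPM in CAF-vec and 32.2, 32.6 and 32.4 CPM in CAF-200, which gave a log2 value of -0.89 (SE 0.161, adjusted *p* = 0.0133, limma). *Psme2* was 103 and 83.6 CPM in CAF-vec and 61.5, 59.6 and 63.7 CPM in CAF-200 (-0.59, SE 0.115, adjusted *p* = 0.0161, limma). Both fell, whereas *Psme3*, which encodes the nuclear activator PA28γ, rose. It was 91.5 and 86.9 CPM in CAF-vec and 119, 117 and 131 CPM in CAF-200 (0.45, SE 0.0931, adjusted *p* = 0.0187, limma). Per length, *Psme3* made up 34.5 and 41.9% of the summed *Psme1* and *Psme3* level in CAF-vec and 60.7, 59.9 and 62.8% in CAF-200. *Psme2* is not in that sum. It was above *Psme3* in every sample, at 108 and 86.9 against 34.4 and 32.6 CPM per kb in CAF-vec. In CAF-200 it was at 63.9, 61.9 and 66.2 against 44.7, 43.8 and 49.2 CPM per kb. *Psme4* and *Psmf1* had values of 0.03 and 0.18 on the log2 scale.

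The catalytic immunoproteasome genes were at low levels. *Psmb8* was 0.314 and 0.369 CPM in CAF-vec and 1.25, 1.61 and 0.789 CPM in CAF-200, and *Psmb9* was 0.837 and 0.618 CPM in CAF-vec and 1.82, 1.67 and 3.06 CPM in CAF-200. *Psmb9* rose by 1.10 (adjusted *p* = 0.0250) on the log2(CPM + 0.5) scale (limma), which understates the change of such low genes. *Psmb8* had a value of 1.00 (adjusted *p* = 0.0277, limma), but was under 0.5 CPM in both CAF-vec samples and entered the test only through the CAF-200 samples, so that its call is no support for a rise, and without it 5 of 35 other pathway genes rose. Per length, *Psmb8* made up at most 0.782% of the *Psmb5* and *Psmb8* level, and *Psmb9* at most 0.765% of the *Psmb6* and *Psmb9* level. *Psmb8*, *Psmb9* and *Psme1* each overlap a gene on the opposite strand. Of the genes known to be induced together by interferon, *Psmb9* thus rose, *Psme1* and *Psme2* fell, and *Psmb10* did not pass the test.

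Of the genes that act on the proteasome, both deubiquitinases bound to the 19S cap rose. They were 2 of the 8 listed deubiquitinases and adaptors (25%), beside 11.9% of all genes called higher. *Usp14* was 107 and 106 CPM in CAF-vec and 145, 143 and 154 CPM in CAF-200 (log2 fold-change 0.47, SE 0.0839, adjusted *p* = 0.0129, limma). *Uchl5* was 31.3 and 23.0 CPM in CAF-vec and 40.4, 40.1 and 39.9 CPM in CAF-200 (0.57, SE 0.141, adjusted *p* = 0.0316, limma). With sample weights both calls were lost (adjusted *p* = 0.0694 for *Usp14* and 0.0531 for *Uchl5*, limma). Of the shuttle and adaptor genes, *Ubqln2*, *Ubqln4* and *Rad23b* had values of 0.56, 0.33 and -0.47 (adjusted *p* = 0.0587, 0.0544 and 0.117, limma). Among the 5 chaperones of core assembly, *Psmg4* rose, from 10.3 and 15.6 CPM in CAF-vec to 24.2, 22.4 and 21.9 CPM in CAF-200 (0.82, SE 0.182, adjusted *p* = 0.0225, limma). *Psmg2* and *Psmg3* had values of 0.51 and -0.30 (adjusted *p* = 0.0890 and 0.236), and *Pomp* of -0.06.

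*Nfe2l1* encodes Nrf1, the factor known to raise proteasome genes together, and *Ngly1* and *Ddi2* encode the enzymes that process it. *Ngly1* fell, from 19.4 and 16.2 CPM in CAF-vec to 13.6, 13.0 and 13.0 CPM in CAF-200 (log2 fold-change -0.41, SE 0.109, adjusted *p* = 0.0374, limma). This call held in 6 of 14 alternatives and was lost with no filter on low values (adjusted *p* = 0.0571), quantile normalization (0.0528) and centring (0.0574), over a range of 0.00108 to 0.152. *Nfe2l1* was 343 and 189 CPM in CAF-vec and 194, 177 and 183 CPM in CAF-200. Here CAF-vec 1 was the high sample and CAF-vec 2 lay within CAF-200 (-0.46, SE 0.248, adjusted *p* = 0.200, limma). *Nfe2l2* had a value of 0.34 with groups that did not overlap (adjusted *p* = 0.0923), *Ddi2* of -0.24 and *Akirin2*, needed for nuclear import of the particle, of 0.07. The ubiquitin genes *Ubb* and *Rps27a* each had a value of 0.17, and *Vcp*, the unfolding segregase, of -0.08 (adjusted *p* = 0.662). The 2 subunits with other names, *Adrm1* and *Sem1*, had values of -0.06 and -0.25.

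**Figure D5:**
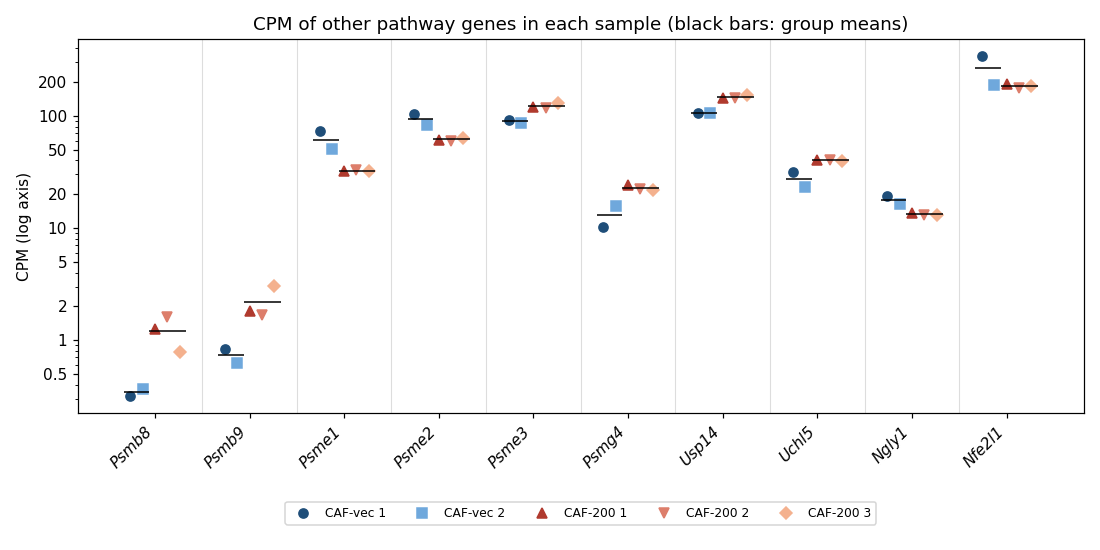
CPM (log axis) of 10 other genes of the pathway in each of the 5 samples, with black bars at the group means. Psme1 and Psme2 are lower and Psme3, Psmg4, Usp14 and Uchl5 higher in all CAF-200 samples than in both CAF-vec samples; Nfe2l1 is high in CAF-vec 1 (343 CPM).

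To show what the promoters of the subunit genes called the same way against both controls contain, their sequences from 250 bases before to 50 after the start site are printed (RefSeq, GRCm38.p6). Capitals mark the motifs searched on both strands, which were GGGCGG (the GC box bound by Sp1), CCAAT (bound by NF-Y), CCGGAAG (the ETS core), GCATGCGC (the core bound by nuclear respiratory factor), AAGATGGCG (the YY1 core) and TGACNNNGC (the core of the antioxidant response element, to which Nrf1 of *Nfe2l1* and Nrf2 of *Nfe2l2* bind).
Psma2 (GRCm38.p6, chr13:14612992-14613291, plus strand): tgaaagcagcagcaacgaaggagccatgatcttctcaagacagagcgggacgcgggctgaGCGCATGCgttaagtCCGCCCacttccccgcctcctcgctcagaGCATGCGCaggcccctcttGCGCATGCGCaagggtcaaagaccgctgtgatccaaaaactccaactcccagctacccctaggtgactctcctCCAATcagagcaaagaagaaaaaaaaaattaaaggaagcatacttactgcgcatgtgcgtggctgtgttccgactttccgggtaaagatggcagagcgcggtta
Psma1 (GRCm38.p6, chr7:114276067-114276366, minus strand): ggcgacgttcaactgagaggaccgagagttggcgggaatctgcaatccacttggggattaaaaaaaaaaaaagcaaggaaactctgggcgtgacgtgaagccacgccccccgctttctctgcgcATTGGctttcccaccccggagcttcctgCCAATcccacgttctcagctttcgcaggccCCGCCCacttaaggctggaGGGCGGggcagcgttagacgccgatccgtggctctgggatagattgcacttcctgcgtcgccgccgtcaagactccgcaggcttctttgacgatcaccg
Psma4 (GRCm38.p6, chr9:54950609-54950908, plus strand): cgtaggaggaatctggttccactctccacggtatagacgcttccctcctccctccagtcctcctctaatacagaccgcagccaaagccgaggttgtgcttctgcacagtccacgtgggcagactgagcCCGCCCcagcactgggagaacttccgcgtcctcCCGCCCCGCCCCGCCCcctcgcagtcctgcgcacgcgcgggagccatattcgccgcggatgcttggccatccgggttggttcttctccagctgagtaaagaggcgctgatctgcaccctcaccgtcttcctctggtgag
Psmd12 (GRCm38.p6, chr11:107479278-107479577, plus strand): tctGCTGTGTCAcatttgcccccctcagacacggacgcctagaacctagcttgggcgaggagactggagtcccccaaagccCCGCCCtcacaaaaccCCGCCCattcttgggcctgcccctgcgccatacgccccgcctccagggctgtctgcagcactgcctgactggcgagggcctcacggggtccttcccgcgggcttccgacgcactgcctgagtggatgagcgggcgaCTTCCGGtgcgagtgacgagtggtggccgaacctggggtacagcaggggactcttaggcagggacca
Psmb5 (GRCm38.p6, chr14:54617946-54618245, minus strand): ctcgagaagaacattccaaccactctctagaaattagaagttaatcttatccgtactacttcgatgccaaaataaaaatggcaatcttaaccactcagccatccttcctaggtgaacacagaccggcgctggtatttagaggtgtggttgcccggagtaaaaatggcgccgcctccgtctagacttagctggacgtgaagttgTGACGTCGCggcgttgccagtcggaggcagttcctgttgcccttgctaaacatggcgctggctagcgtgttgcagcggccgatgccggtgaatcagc
*Psma2* carried 4 matches to GCATGCGC, of which the last pair overlaps, and *Psma4* carried 4 GC boxes, of which the last 3 run into each other. In *Psmd12* the antioxidant response element core starts at position -247 from the start site and in *Psmb5* at -47. A promoter was matched for 31 of the 38 members, 33 sequences in all. The antioxidant response element core was in 15.2% of the member promoters (*Psmb5*, *Psmb6*, *Psmc6*, *Psmd12* and *Psmd9*), against 12.4% of all 32851 promoters. CCAAT was in 39.4 against 37.4%, GGGCGG in 54.5 against 35.7%, CCGGAAG in 36.4 against 8.86%, GCATGCGC in 6.06 against 2.71% and AAGATGGCG in 6.06 against 1.40%. These are descriptions of letters in the windows. The members with the antioxidant response element core included the rising *Psmd12* and the 2 members with the lowest log2 fold-change, *Psmd9* and *Psmb5*.

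The overexpressed miRNAs are listed here because their seed (bases 2 to 8, in capitals) defines which 3′-UTRs can be matched. They lie on the minus strand of chromosome 4 (RefSeq, GRCm38.p6), miR-200b at chr4:156055685-156055706, miR-200a at chr4:156054911-156054932 and miR-429 at chr4:156053916-156053937.
miR-200b-3p: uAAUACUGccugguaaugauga
miR-429-3p: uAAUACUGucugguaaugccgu
miR-200a-3p: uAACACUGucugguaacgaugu
miR-200b and miR-429 share a seed and match CAGTATT, and miR-200a matches CAGTGTT. In the longest annotated 3′-UTR (GENCODE M21), 4 of the 36 tested members had a match (11.1%), against 30.3% of 12060 genes, and the members' 3′-UTRs had a median of 295 bases against 1174. The 5 sites of these 4 genes are shown with the match in capitals, *Psma2* first because it was called higher.
Psma2 site 1, miR-200b and miR-429: tgatgtatttgagtccagcaCAGTATTaat
Psma2 site 2, miR-200b and miR-429: atcttaaaaaaaaaccaatgCAGTATTtaa
Psmb4, miR-200a: ttctggcatagctggcaattCAGTGTTtat
Psmd11, miR-200a: cactgtaactagattagactCAGTGTTtta
Psmd5, miR-200a: aggcacagcctcaccatcagCAGTGTTgtc
The *Psma2* sites start at bases 1544 and 1959 of a 3′-UTR of 2171 bases. The log2 fold-changes of the 4 genes were 0.55 for *Psma2*, -0.29 for *Psmb4*, -0.12 for *Psmd11* and 0.14 for *Psmd5*, so the gene with 2 matches rose and the others did not pass the test. As a check of the overexpression, *Zeb1*, a known target of the family, was 43.5 and 50.7 CPM in CAF-vec and 37.8, 37.5 and 34.1 CPM in CAF-200 (log2 fold-change -0.36, SE 0.107, adjusted *p* = 0.0504, limma). *Zeb2* was 46.2 and 29.8 CPM in CAF-vec and 31.9, 31.8 and 31.1 CPM in CAF-200 (-0.23, SE 0.186, adjusted *p* = 0.374, limma). The miR-200 genes themselves were not analysed here.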

How the data were processed

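RNA of 2 CAF-vec and 3 CAF-200 samples was sequenced as stranded, paired-end mRNA libraries. The authors deposited 1 table of CPM values named for TMM normalization, and the submitters' processing notes name FastQC, cutadapt, Trimmomatic, STAR, RSEM and edgeR with GRCm38/mm10, without versions. Only 20.8 to 41.7% of the low values were within 0.05 of a whole multiple of the commonest low value, so counts were not recovered, depth is unknown and no count test was run. All sample columns were used.

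The 12175 genes (of 21835) that reached 0.5 CPM in 2 or more samples were fitted on log2(CPM + 0.5) using limma 3.58.1 (R 4.3.3, variance trend, Benjamini-Hochberg adjustment), without covariates. This procedure was tried on simulated data with the same spread in both groups. That trial cannot show how it behaves where the spreads differ, as they do here. Adding 0.5 CPM understates changes of low genes. Names, coordinates and 3′-UTRs came from GENCODE M21, and promoters and miRNAs from RefSeq. Tables and plots used Python 3.11.15, pandas 2.3.3, numpy 2.4.6 and matplotlib 3.10.9.

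The members, gene lists and tests were chosen with earlier results of these data known. Members were named by role, with values per sample for the 6 largest rises and 6 largest falls among those tested whatever their *p*, *Psma1* as a called gene, the catalytic genes and *Psmb10*. *Psmd13* was named after its values were seen. Single values of a few listed genes are not reported here. Of the other pathway genes, those called, *Nfe2l1* and the extremes of each list were named. Alternatives were other pseudocounts (1 and 0.1 CPM), filters, scalings, no variance trend, a replicate block, sample weights, a stricter adjusted *p* and each sample left out.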

Additional observations from a re-analysis of the deposited data

How the results depend on the processing

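Another pseudocount, another filter and no variance trend kept the counts of called members and other pathway genes within 1.5 times of those reported. Quantile normalization gave 9 members higher and 1 lower, against 14.7 and 15.5% of all genes. Its median log2 fold-change of the members was 0.21, against -0.016 over all genes. Centring on the sample median gave a median of 0.20, against 0.0027 over all genes. The members' median minus that of all genes was thus 0.20 both as reported and after centring, and 0.22 after quantile normalization. Sample weights, chosen after seeing the data, gave 0 members called and 1 other pathway gene higher and 2 lower, against 619 genes higher and 852 lower of 12175. At an adjusted *p* under 0.01 the counts were 0 members higher, 0 other pathway genes higher and 0 lower. The share of all genes at this threshold alone was not counted, but 4.72% of all genes passed it with a log2 fold-change beyond 1. Leaving out each sample in turn gave 0 to 16 members higher, 0 to 10 lower and 0 to 1 past both thresholds of the study, 0 to 15 other pathway genes higher and 0 to 12 lower, and medians of 0.020 to 0.20. Over all genes, the medians in the fits with a sample left out were -0.12 to -0.060. With a CAF-vec sample left out, the lone control is assumed to vary like CAF-200. The 5 called members kept an adjusted *p* under 0.05 in 8 to 10 of 14 alternatives each.

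With the replicate number as a block, 0 members were higher, against 5.17% of all genes, and 2 other pathway genes were higher (*Psmb8*, which entered the test only through CAF-200, and *Psmb9*) and 1 lower, against 630 genes higher and 852 lower. The labels tie a number to no shared culture or batch, and 2 pairs are too few to settle whether the numbers pair the samples. Deviations from the group means correlated at 0.25 and 0.13 in the same-numbered pairs and at -0.25 to 0.12 in the others, and those of the 2 CAF-vec samples mirror each other by construction. CAF-200 3 has no partner and does not enter the fold-change of that fit. The sign of *Psmb10* turned with quantile normalization (0.058), centring (0.047) and the block (0.066), and its values ranged from -0.41 to 0.31 when a sample was left out. In the same way, *Psmb4* ranged from -0.63 to 0.049, *Psmb6* from -0.28 to 0.030 and *Psmd11* from -0.36 to 0.12, each positive only without CAF-vec 1. The cause of these shifts was not tested. Count tests in edgeR and DESeq2 were not run, since counts could not be recovered, and for lack of depth no detection limit can be given.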
